A study of Homo sapiens with 2 samples.

Results

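The SWI/SNF subunit genes were examined as targets of the complex's own ATPase in FLAG-SMARCA4 ChIP-seq data. The set held 31 genes, those encoding the ATPases SMARCA4 (BRG1) and SMARCA2 (BRM) and the other subunits of the 3 SWI/SNF assemblies, out of 20136 protein-coding genes. A gene was counted when a differential region lay within 1 kb, measured from the nearest edge, of the transcription start site (TSS) of any of its annotated transcripts. Regions elsewhere in the gene record were then added. Of 12896 regions that differed between parental and EZH2 inhibitor-resistant (EIR) cells, 28 lay at 19 of the 31 genes.

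The data came from 2 libraries, 1 of parental TOV21G cells and 1 of EIR clone 3. TOV21G derives from an ovarian clear cell carcinoma and has mutated *ARID1A*, and the clone was picked after TOV21G cells had been grown in the EZH2 inhibitor GSK126 at 5, 10, 15 and then 20 μM. Both lines carried a FLAG epitope at the 3′ end of the endogenous *SMARCA4* coding sequence, placed there by CRISPR. Lists of differing regions give no way to check the cell line or the SMARCA4 level against the labels. Whether GSK126 was present at the time of ChIP is not given in the sources used here. The parental library held 25.6 M aligned reads (tags, M for mega). In the deposited scaling 1 EIR tag counted for 0.733 of a parental tag, which puts the EIR library at 35.0 M. EIR tags are given on this scale unless called raw. With 1 library a condition and 1 clone, the intervals below cover counting error only. They compare the libraries, and the variation between cultures or clones is unknown. Because the tag is on SMARCA4 itself, less tagged protein in the clone and less of it at a given site cannot be told apart.

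SWI/SNF complexes use the energy of ATP to slide or evict nucleosomes and so open promoters and enhancers. SMARCA4 and SMARCA2 are alternative ATPases of a shared core. Canonical BAF is defined by ARID1A or ARID1B, PBAF by ARID2, PBRM1, PHF10 and BRD7, and non-canonical BAF by BRD9 with BICRA or BICRAL. Several subunits come in paralogue families of which 1 member enters each complex, and *ARID1A* is among the most often mutated genes in ovarian clear cell carcinoma.

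The sequence of 6 stretches is shown for the genes on which the results turn. The first 4 end at the base before the most upstream TSS that the region covers (*SMARCA4*) or before the canonical TSS (*SS18L1*, *BICRAL* and *ARID2*), and lie inside a region with more parental tags. They stand for the promoter of the tagged ATPase, for the promoter with the most tags, for a long region at a non-canonical BAF gene, and for the smallest difference. The last 2 are the centres of the only regions at these genes with more EIR tags. All are from GRCh37 (hg19), 5′ to 3′ on the strand of the gene, and capitals mark GGGCGG, the core of the SP/KLF motif, or its reverse complement CCGCCC.
SMARCA4 upstream (chr19:11071435-11071607): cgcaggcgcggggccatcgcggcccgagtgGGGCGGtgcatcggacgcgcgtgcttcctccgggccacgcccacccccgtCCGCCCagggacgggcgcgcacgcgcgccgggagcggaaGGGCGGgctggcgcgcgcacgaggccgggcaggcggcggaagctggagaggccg
SS18L1 upstream (chr20:60718625-60718824): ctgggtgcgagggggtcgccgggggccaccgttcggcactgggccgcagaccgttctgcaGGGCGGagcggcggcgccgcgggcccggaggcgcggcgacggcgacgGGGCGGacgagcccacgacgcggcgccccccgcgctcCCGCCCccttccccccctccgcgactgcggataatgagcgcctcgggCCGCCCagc
BICRAL upstream (chr6:42749590-42749789): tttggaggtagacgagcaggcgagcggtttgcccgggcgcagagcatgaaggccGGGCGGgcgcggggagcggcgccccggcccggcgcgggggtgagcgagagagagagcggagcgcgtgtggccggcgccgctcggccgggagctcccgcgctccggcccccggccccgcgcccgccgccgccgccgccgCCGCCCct
ARID2 upstream (chr12:46123289-46123488): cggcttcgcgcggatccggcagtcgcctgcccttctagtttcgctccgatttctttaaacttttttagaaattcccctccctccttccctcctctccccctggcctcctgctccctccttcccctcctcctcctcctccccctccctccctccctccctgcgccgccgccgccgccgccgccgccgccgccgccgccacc
SMARCA4 intron 28 (chr19:11145124-11145323): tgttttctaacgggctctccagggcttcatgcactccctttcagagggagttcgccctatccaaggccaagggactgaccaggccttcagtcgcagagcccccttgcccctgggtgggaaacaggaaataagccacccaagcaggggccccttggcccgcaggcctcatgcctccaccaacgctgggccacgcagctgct
BRD9 (chr5:863613-863812, minus strand): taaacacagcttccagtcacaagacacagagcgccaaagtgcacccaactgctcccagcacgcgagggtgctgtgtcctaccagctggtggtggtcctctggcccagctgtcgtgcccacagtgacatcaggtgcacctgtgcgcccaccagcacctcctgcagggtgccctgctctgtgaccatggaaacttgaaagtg

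The *SMARCA4*, *SS18L1* and *BICRAL* stretches were GC-rich, at 82.1%, 81.5% and 82.5%, and held 32, 35 and 37 CpG dinucleotides. They contained 3, 4 and 2 matches to GGGCGG. The *ARID2* stretch had a GC content of 69.0% with 20 CpG dinucleotides and no GGGCGG. The EIR-higher centres in *SMARCA4* and *BRD9* had 6 and 5 CpG dinucleotides in 200 bases, at 62.5% and 60.0% GC, and no GGGCGG.

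SMARCA4 binding was lower in EIR cells at the promoters of 18 of the 31 SWI/SNF genes (58.1%), through 20 regions with more parental tags. Across all protein-coding genes the same rule found 4668 of 20136, or 23.2%. Summed over the 20 regions, which covered 21.83 kb, there were 1595 parental tags and 652 EIR tags, or 73.1 and 29.9 tags per kb. The summed fold was 2.44 (95% interval 2.25 to 2.66). Only 1 promoter region, in *SMARCA4*, had more EIR tags, against 1.96% of all protein-coding genes. Regions entered the lists because they differed between the same libraries, so these folds describe the listed regions and are no independent test of a difference.

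Several properties of the genes are set beside the share of 58.1%. The SWI/SNF genes had more annotated TSSs than most genes, with a median of 12.5 for the 18 genes with a region and 13 for the other 13, against 5 for all protein-coding genes. With the canonical TSS alone, 16 of the 31 genes (51.6%) had a parental-higher region, against 20.2% of all protein-coding genes. *DPF1* and *BCL11A* were the genes lost. CpG-rich promoters, with a CpG observed/expected ratio of at least 0.6 from 250 bp upstream to 50 bp downstream of the canonical TSS, were found at 30 of the 31 genes. *ACTL6A* was the exception, with a ratio of 0.58. Among protein-coding genes with such promoters 31.3% had a parental-higher region, and among the 30 SWI/SNF genes 60.0% did. What these properties contributed to the share was not tested.

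**Figure D1:**
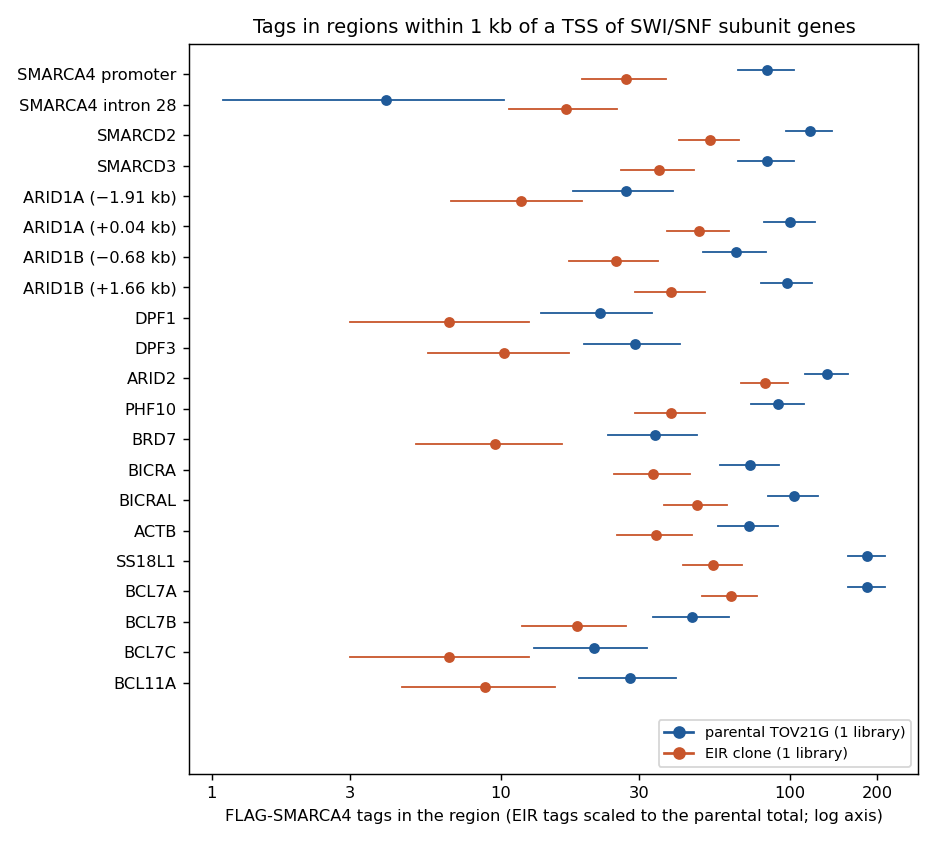
FLAG-SMARCA4 tags in each region within 1 kb of a TSS of a SWI/SNF gene, on a log axis, with EIR tags scaled to the parental total. Points are single libraries and bars are exact 95% Poisson intervals, covering counting error only. Parental tags range from 21 to 185 in the 20 parental-higher regions, and the *SMARCA4* intron 28 region alone has more EIR tags. Numbers in brackets give the distance of the start of the region from the canonical TSS where a gene has 2 parental-higher regions.

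Of the ATPase genes, *SMARCA4* had a parental-higher promoter region and *SMARCA2* had none. The *SMARCA4* region (chr19:11071435-11072389) reached from 271 bp upstream to 683 bp downstream of the canonical TSS, over exon 1 and the start of intron 1. It held 83 parental and 27.1 EIR tags, a fold of 3.06 (2.05 to 4.64), which was above that of 75.1% of the other protein-coding genes with a parental-higher promoter region. The differential region nearest to a TSS of *SMARCA2* lay 374 kb from that TSS and had more EIR tags, 16.1 against 4 parental tags.

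*SMARCA4* was also the only SWI/SNF gene with regions of both directions near a TSS, a pattern found at 0.541% of protein-coding genes. It has 47 annotated TSSs, against a median of 5 for all protein-coding genes, and the share was not taken over genes with as many. The second region (chr19:11144973-11145473) lay in intron 28, 73.3 kb downstream of the canonical TSS. It held 4 parental and 16.9 EIR tags (23 raw), an EIR/parental fold of 4.21 (1.44 to 16.8). It counts as a promoter region because it starts 174 bp from the 5′ end of 1 protein-coding transcript model. That 5′ end is the first base of exon 28 of the canonical transcript, and with the canonical TSS alone no SWI/SNF gene had an EIR-higher promoter region. The CpG observed/expected ratio was 0.30 over this region and 1.10 over the *SMARCA4* promoter region.

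**Figure D2:**
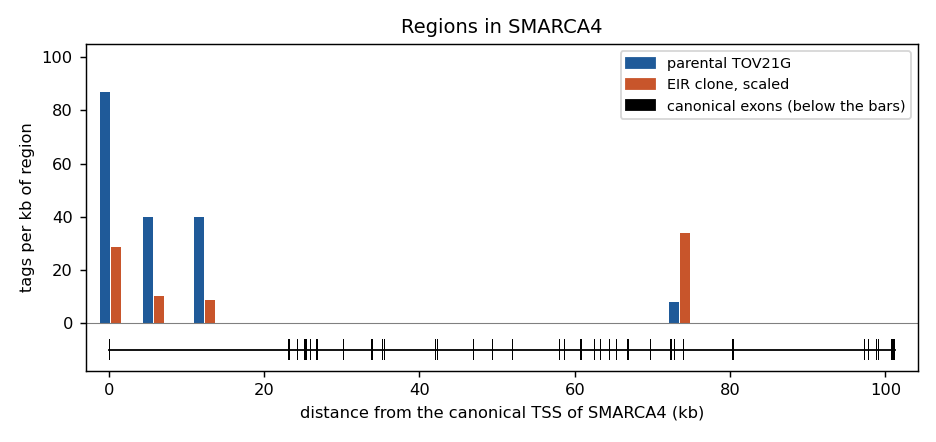
Tags per kb of region along *SMARCA4*, in kb from its canonical TSS. Paired bars, drawn side by side and not to the width of the region, are the parental library and the scaled EIR library, and black marks below are the canonical exons. Parental tags per kb are higher at the promoter and in both intron 1 regions, and EIR tags per kb are higher only in intron 28, at 33.7 against 8.0.

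Among the genes grouped here as core subunits, of which SMARCB1 and SMARCE1 belong to canonical BAF and PBAF but not to non-canonical BAF, *SMARCD2* and *SMARCD3* had lower SMARCA4 binding in EIR cells, while *SMARCC1*, *SMARCC2*, *SMARCD1*, *SMARCB1* and *SMARCE1* had no differential region in the gene record or within 1 kb of a TSS. SMARCD proteins (BAF60) link the complex to transcription factors, and *SMARCD3* encodes the form known from heart and muscle. The *SMARCD2* region (chr17:61919053-61920489) had 117 parental and 52.8 EIR tags, a fold of 2.22 (1.64 to 3.02). The *SMARCD3* region (chr7:150945504-150946432) had 83 and 35.2 tags, a fold of 2.36 (1.63 to 3.44). Both covered the canonical TSS and part of the first exon and intron. A region was thus found at 2 of these 7 genes (28.6%), near the background of 23.2%.

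Of the ARID1 and DPF genes of canonical BAF, 4 of 5 had a parental-higher promoter region (80.0%), against 23.2% of all protein-coding genes. With only 5 genes, the difference in share was not tested. *ARID1A* and *ARID1B*, which encode the mutually exclusive DNA-binding subunits, each had 2 promoter regions, and 2.25% of protein-coding genes had 2 or more with more parental tags. These 2 genes have 16 and 33 annotated TSSs, against a median of 5 for all protein-coding genes, and the share was not taken over genes with as many. The larger *ARID1A* region (chr1:27022542-27023618) began 36 bp downstream of the canonical TSS within exon 1 and had 100 parental and 48.4 EIR tags, a fold of 2.07 (1.50 to 2.87). The smaller one (chr1:27020598-27021098) lay over 1.4 kb upstream of the canonical TSS and 871 bp from an earlier TSS, with 27 and 11.7 tags, a fold of 2.30 (1.20 to 4.57). It stood apart from the other promoter regions in sequence, with a GC content of 46.3% and a CpG ratio of 0.11, against 60.5% or more and 0.68 or more in the other 19.

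The *ARID1B* regions had nearly the same fold. The region over the canonical TSS (chr6:157097833-157099017) held 65 parental and 24.9 EIR tags, a fold of 2.61 (1.70 to 4.07). The second (chr6:157100174-157101332), which spans the end of exon 1 and further TSSs, held 98 and 38.8 tags, a fold of 2.52 (1.79 to 3.59). More tags thus lay on the downstream of the 2 regions in both *ARID1A* and *ARID1B*.

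*DPF1*, *DPF2* and *DPF3* encode PHD-finger subunits (BAF45), of which DPF2 is the widely expressed form. *DPF2* had no promoter or gene-body region, although a parental-higher region lay 8.93 kb from its nearest TSS. The *DPF1* region (chr19:38719998-38720498) lay over 5 kb upstream of the canonical TSS on an alternative TSS and held 22 parental and 6.60 EIR tags, a fold of 3.33 (1.48 to 8.23). The *DPF3* region (chr14:73360065-73360565) lay in intron 1, 244 bp downstream of the canonical TSS, with 29 and 10.3 tags, a fold of 2.83 (1.45 to 5.79).

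At the PBAF genes, SMARCA4 binding was lower in EIR cells at *ARID2*, *PHF10* and *BRD7* but no region was listed at *PBRM1*, which encodes the subunit with several bromodomains. *ARID2*, encoding the DNA-binding subunit of PBAF, had the smallest difference. Its region (chr12:46122852-46124666) held 134 parental and 82.1 EIR tags, a fold of 1.63 (1.26 to 2.12), and only 0.387% of the other genes with a parental-higher promoter region had a smaller fold. At 45.3 EIR tags per kb it was the highest of the 20 regions in the EIR library, whereas in the parental library it had 73.9 per kb.

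*BRD7*, which encodes a bromodomain subunit, had the largest promoter fold of the 18 genes. Its region (chr16:50402188-50402816) had 34 parental and 9.53 EIR tags, a fold of 3.57 (1.84 to 7.37). Its interval overlapped that of *ARID2*. The region of *PHF10*, which encodes the PHD-finger subunit BAF45A, (chr6:170123057-170124615) began 19 bp upstream of the canonical TSS and ran 1539 bp into the gene, with 91 and 38.8 tags, a fold of 2.34 (1.65 to 3.35).

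For non-canonical BAF, the paralogues *BICRA* (GLTSCR1) and *BICRAL* had nearly equal folds. The *BICRA* region (chr19:48111360-48112148) lay upstream of the canonical TSS over an earlier one and held 73 parental and 33.7 EIR tags, a fold of 2.17 (1.48 to 3.20). The *BICRAL* region (chr6:42749199-42751303) held 103 and 47.6 tags over 2104 bp, a fold of 2.16 (1.57 to 3.00). They differed in density, with 92.6 parental tags per kb at *BICRA* and 49.0 at *BICRAL*.

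*BRD9*, the bromodomain subunit that marks non-canonical BAF, had no promoter region and the only gene-body region with more EIR tags. It lay across the 3′ end of the canonical transcript (chr5:863462-863962), inside the longer gene record, 29.0 kb downstream of the canonical TSS, with 107 bp inside the last canonical exon. It held 6 parental and 20.5 EIR tags (28 raw), an EIR/parental fold of 3.42 (1.39 to 10.1). Among all protein-coding genes, 3.14% had an EIR-higher region in the gene body.

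Of the actin-related genes, *ACTB* had a promoter region and *ACTL6A* and *ACTL6B* had none. β-actin is a stable subunit of every SWI/SNF form besides its role in the cytoskeleton, and the ACTL6 proteins (BAF53) pair with it. The *ACTB* region (chr7:5570156-5571002) held 72 parental and 34.5 EIR tags, a fold of 2.09 (1.43 to 3.09), and ran from 770 bp upstream to 76 bp downstream of the canonical TSS.

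The remaining accessory genes included the promoters with the most tags. *SS18L1* (CREST), a paralogue of the synovial sarcoma fusion gene *SS18*, had 185 parental and 54.2 EIR tags over 2200 bp (chr20:60717844-60720044), a fold of 3.41 (2.59 to 4.53). In parental tags this region exceeded 98.8% of the other protein-coding genes with a parental-higher promoter region. It was also within 1 kb of a TSS of *PSMA7*, a proteasome gene, and its tags cannot be assigned to either gene. *SS18* itself had no region, and the nearest lay 83.8 kb from its closest TSS.

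The 3 BCL7 genes, which encode small subunits found in all SWI/SNF forms, each had a region over the canonical TSS. *BCL7A* (chr12:122459336-122461204) held 184 parental and 62.3 EIR tags, a fold of 2.95 (2.27 to 3.87). *BCL7B* (chr7:72971604-72972268) held 46 and 18.3 tags, a fold of 2.51 (1.51 to 4.26). *BCL7C* (chr16:30905395-30905895) held 21 and 6.60 tags, a fold of 3.18 (1.40 to 7.89). The parental tags thus differed widely within the family, whereas the intervals of the 3 folds overlapped.

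*BCL11A* encodes a zinc-finger protein that is found with canonical BAF. Its region (chr2:60778600-60779224) lay in intron 1, 540 bp from an internal TSS and 1565 bp downstream of the canonical one, with 28 parental and 8.80 EIR tags, a fold of 3.18 (1.57 to 6.87). The related *BCL11B* had no region, with the nearest 208 kb from a TSS.

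**Figure D3:**
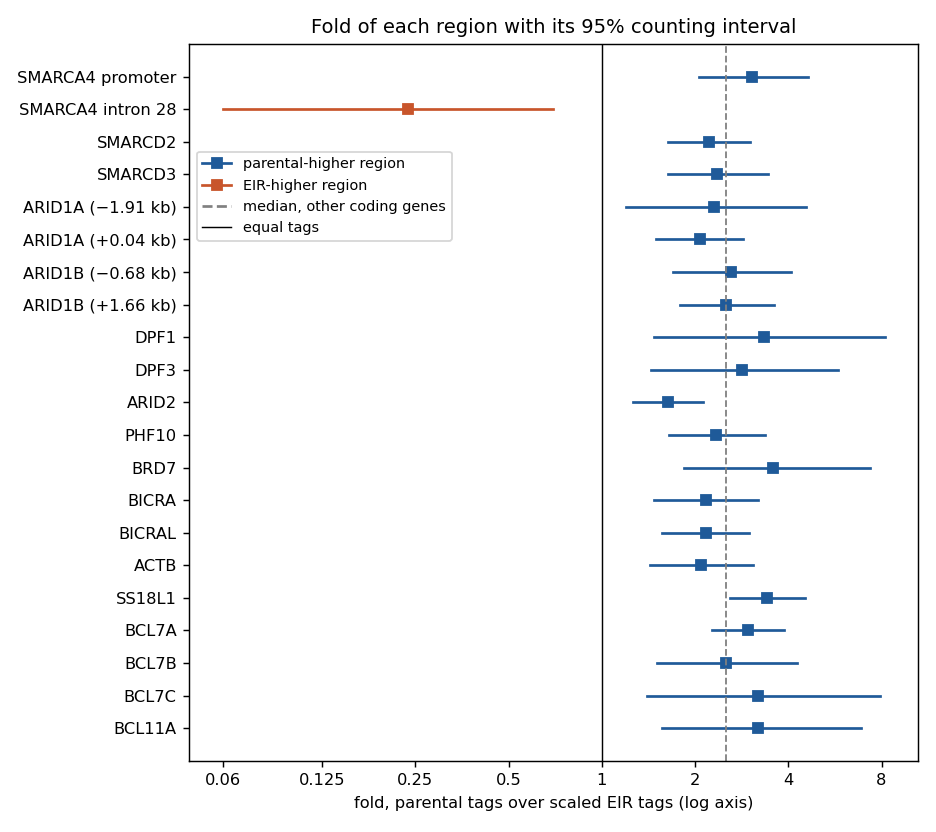
Fold of parental over scaled EIR tags in each region within 1 kb of a TSS of a SWI/SNF gene, on a log axis, with 95% intervals from the tag counts of both libraries (exact Clopper-Pearson). The dashed line is the median of the other protein-coding genes with a parental-higher promoter region, 2.52. All 20 parental-higher regions have intervals above 1, the fold of *ARID2* is the lowest of them, and that of *BRD7* the highest. Regions were listed for a difference between these same libraries, so intervals above 1 are no separate evidence.

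The median fold at SWI/SNF genes was close to that elsewhere, but the sets were not matched for tags, so folds at equal tags were not compared. The median fold of the 18 genes was 2.52 and that of the 4650 other protein-coding genes with a parental-higher promoter region was 2.52. The fold ranged from 1.63 to 3.57 at SWI/SNF genes, and the quartiles of the other genes were 2.13 and 3.06. The SWI/SNF regions held more tags, with a median of 83 against 50, and were longer, 941 bp against 764 bp. The genes with the fewest parental tags, *BCL7C*, *DPF1*, *BCL11A*, *DPF3* and *BRD7*, had folds of 2.83 or more, and the lower edge of the whole list also rises toward low tags, since a region with few tags needed a larger fold to be listed.

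**Figure D4:**
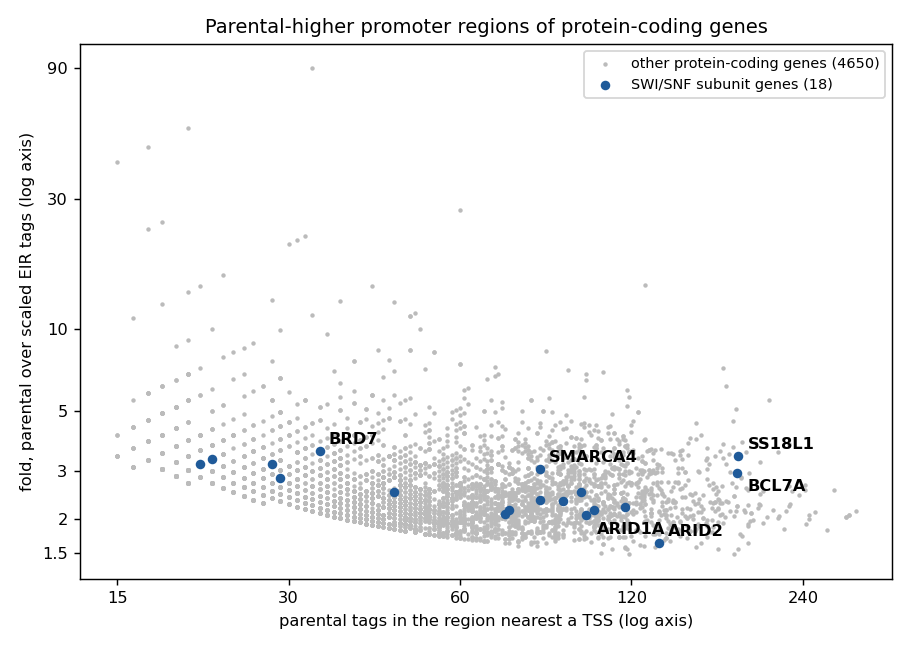
Parental tags (x, log axis) and fold of parental over scaled EIR tags (y, log axis) of the region nearest a TSS for the 18 SWI/SNF genes, in blue, and the 4650 other protein-coding genes with a parental-higher promoter region, in grey. The SWI/SNF genes lie within the cloud, with *ARID2* on its lower edge and *SS18L1* and *BCL7A* among the genes with the most tags.

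Among paralogues that each had a parental-higher promoter region, the folds did not differ beyond counting error. Paralogues without such a region, among them *SMARCA2*, *SMARCD1*, *DPF2*, *SS18* and *BCL11B*, had no fold to compare. All regions compared had passed the same call, which kept small folds out. In 7 pairs among *ARID1A* and *ARID1B*, *SMARCD2* and *SMARCD3*, *DPF1* and *DPF3*, *BICRA* and *BICRAL*, and the BCL7 genes, the ratio of the folds lay between 0.79 (*BCL7B* over *BCL7C*) and 1.18 (*DPF1* over *DPF3*, and *BCL7A* over *BCL7B*). The approximate 95% interval of the ratio included 1 in every pair. It was 0.52 to 1.29 for *ARID1A* over *ARID1B* and 0.43 to 3.22 for *DPF1* over *DPF3*, so differences of this size remain possible. Across families, the intervals of *SS18L1* and *BCL7A* lay wholly above that of *ARID2*, while the *SMARCA4* interval overlapped it.

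The position of the regions varied among the genes. Of the 20 parental-higher regions, 17 covered a TSS of the gene and 12 the canonical TSS, and 4 were 500 bp long. *BICRA*, the smaller *ARID1A* region and *DPF1* lay wholly upstream of the canonical TSS, and *BRD7*, *DPF3*, *BCL11A*, the larger *ARID1A* region and the second *ARID1B* region wholly downstream. Another protein-coding gene had a TSS within 1 kb only at *SS18L1*, but 9 regions lay within 1 kb of a TSS of a noncoding gene, among them the microRNA genes *MIR4466* at the second *ARID1B* region and *MIR762* at *BCL7C*.

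**Figure D5:**
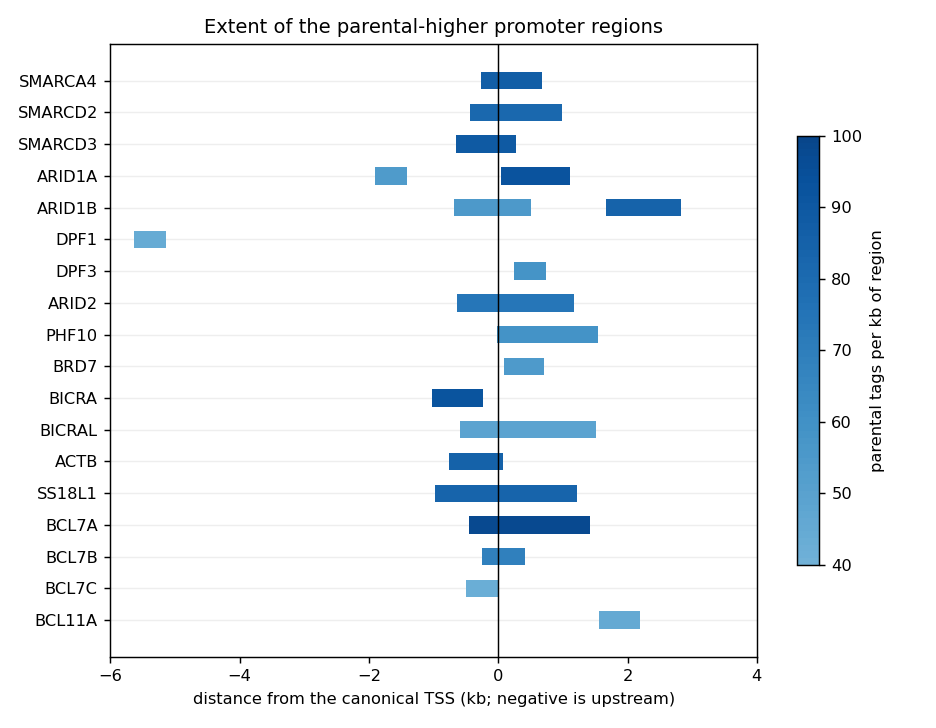
Extent of the 20 parental-higher promoter regions around the canonical TSS of each gene, in kb along its strand, with darker blue for more parental tags per kb of region. Of these regions 12 cross the canonical TSS, at 0, and the densest is that of *BCL7A*, at 98.5 tags per kb.

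In the gene bodies, 7 further regions lay over 1 kb from any TSS of the gene, at 6 SWI/SNF genes. Parental-higher regions were found in the bodies of 5 genes (16.1%), against 9.22% of all protein-coding genes. Intron 1 of *SMARCA4* had 2 regions with 20 parental tags each, against 5.13 EIR tags 5.55 kb from the canonical TSS (fold 3.90, 1.58 to 10.9) and 4.40 EIR tags 12.1 kb from it (fold 4.55, 1.76 to 13.8). These were the largest parental folds at any SWI/SNF gene, though their intervals covered that of the *SMARCA4* promoter.

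The other parental-higher gene-body regions had folds between 2.20 and 3.31. *SMARCD3* had one with 51 parental and 21.3 EIR tags, upstream of the canonical TSS within longer transcripts, and *ACTB* had one with 42 and 19.1 tags, 24.5 kb upstream of its canonical TSS, inside the gene record only through longer transcript models. *BICRA* had one in intron 1 with 26 and 11.0 tags. *BCL7A* had one in intron 1 with 17 and 5.13 tags. In each of these 4 genes the promoter region had the more tags, and the fold was in the same direction.

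No region of either list was found at 12 genes, *SMARCA2*, *SMARCC1*, *SMARCC2*, *SMARCD1*, *SMARCB1*, *SMARCE1*, *DPF2*, *PBRM1*, *ACTL6A*, *ACTL6B*, *SS18* and *BCL11B*. The nearest regions to their TSSs lay between 8.93 kb (*DPF2*) and 374 kb (*SMARCA2*) away. *SMARCB1*, which encodes the core subunit lost in rhabdoid tumours, had one at 13.5 kb, *SMARCC1* (BAF155) at 31.7 kb and *PBRM1* at 75.1 kb. As only regions that differed were listed, equal binding in both lines and no binding in either cannot be told apart at these genes.

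The ranges of sequence composition overlapped between the genes with and without a parental-higher region, and the differences between them were not tested. From 250 bp upstream to 50 bp downstream of the canonical TSS, the median CpG observed/expected ratio was 0.96 for the 18 genes with a region and 0.92 for the 13 without, against 0.78 for 19856 protein-coding genes with a canonical transcript. The median GC content was 73.3% and 66.7%, with overlapping ranges of 57.0% to 85.3% and 55.7% to 82.0%. GGGCGG, on either strand, was found in 17 of the 18 and 11 of the 13 promoters, and in 61.5% of all. It was missing at *ARID2* among the genes with a region, and at *DPF2* and *BCL11B* among those without. Of the 19856 genes, 4659 had a parental-higher promoter region, and 83.5% of these 4659 had GGGCGG. Their median CpG ratio was 0.89 and their median GC content 72.0%.

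Of the 7 other motifs searched on both strands, CCAAT (NFY) was found in 4 of the 18 promoters and 6 of the 13, against 36.0% of all. CCGGAAG (ETS) was found in none of the 18 and in 3 of the 13, those of *SMARCA2*, *SMARCC1* and *BRD9*, against 14.2% of all. GGAATG (TEAD) was found in 3 and 2 promoters, against 11.3% of all. TGANTCA (AP-1) and the YY1 motif were each in none of the 18 and 2 of the 13, against 5.41% and 1.44% of all. TGACGTCA (CRE) and the NRF1 motif were in none of the 31, against 2.68% and 1.70% of all promoters. A match to these letters is no evidence that a factor binds.

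ATPases of the SNF2 family outside SWI/SNF gave a point of comparison. Of 26 such genes, 8 (30.8%) had a parental-higher promoter region and 0 an EIR-higher one. Their median fold was 2.73, within a range of 2.07 to 11.1. The most tags lay at *CHD7*, with 112 parental and 43.2 EIR tags, and at *CHD9*, with 106 and 50.6 tags. *CHD6* followed with 65 and 18.3 tags. The difference in share from the SWI/SNF genes was not tested.

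The counts of genes depended on the scale of the libraries. With each EIR tag counted 1.5 times higher, 12 of the 20 promoter regions at 11 of the 18 genes still had a fold interval above 1, and the share of all protein-coding genes fell to 11.1%. *ARID1A*, *DPF1*, *DPF3*, *ARID2*, *BICRA*, *ACTB* and *BCL7C* were the genes lost, and the remaining folds ranged up to 2.38.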

How the data were processed

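The 2 libraries, 1 of parental TOV21G cells and 1 of EIR clone 3, were made from dual-crosslinked, MNase-digested chromatin with an anti-Flag antibody and read as 75 bp single ends. The authors aligned reads to hg19 with bowtie (0.12.9 in the submitters' processing notes) and called regions with HOMER in histone style, each library once as the control of the other, at an FDR of 5%. For each region the deposited lists give the count of parental tags, not normalized, and the EIR tags as a signal that the authors scaled to the parental total. The deposited normalized signal per 10000000 tags gave the parental total. The EIR total was derived from it and the value of 1 EIR tag described below. HOMER's own fold, p-value, score and clonal columns were not used.

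The value of 1 EIR tag was taken as the step that fits the scaled values as whole numbers. The smallest scaled values were left out of this fit and its check. The 173 distinct values that remained were all whole multiples of the step within 0.06 of a tag. The fold is parental tags over scaled EIR tags, with exact Clopper-Pearson 95% intervals, and the intervals of ratios of folds are approximate (normal on the log scale). Genes, transcripts and TSSs came from GENCODE 44 on GRCh37. For the fold summary each gene gave the region nearest a TSS. Software was Python 3.11.15 with scipy 1.17.1, statsmodels 0.14.6, pandas 2.3.3, numpy 2.4.6 and matplotlib 3.10.9. Intervals and joins were tested on simulated data. The genes and lists were chosen with earlier results of these data known. Every SWI/SNF gene was accounted for, with full values for all promoter regions, and the comparison list names the 3 genes with the most tags. The CpG-rich share, the paralogue ratios and the TSS numbers were added after the values were seen. Other window, TSS, fold and scale settings were tried as alternatives. RNA-seq and ChIP-qPCR were not analysed here.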

Additional observations from a re-analysis of the deposited data

How the results depend on the processing

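The count of 18 SWI/SNF genes with a parental-higher promoter region stayed between 16 and 18 under a minimum fold of 2. The same held with distances to the centre of a region, windows of 5 kb or 500 bp, and canonical or coding TSSs only. Under these settings the share of all protein-coding genes lay between 20.1% (minimum fold of 2) and 27.1% (window of 5 kb). All 18 genes also remained under an exact binomial test with Benjamini-Hochberg adjustment. That test reused the counts that put the regions on the lists, so it was no separate check. A minimum fold of 4 left 0 of the 18 genes, and 2.01% of all protein-coding genes. EIR tags scaled 1.5 times higher left 11 and lowered the median fold to 1.68, which follows from the scaling itself. Scaled 1.5 times lower, all 18 remained, as they had to, since this scaling only raises the parental folds. The single gene with an EIR-higher promoter region became 2 with a window of 5 kb (*BRD9* added) and 0 with canonical TSSs only or EIR tags scaled 1.5 times lower. In this order, the shares of all protein-coding genes were 3.5%, 1.13% and 0.512%. The 6 genes with gene-body regions became 4 within canonical transcripts or over 5 kb from a TSS. Of the folds of single regions, 12 moved by more than their interval allowed with EIR tags scaled 1.5 times higher, and 0 changed direction. Neither count is a check of the regions. The same factor was applied to every region, so only the width of its interval decided whether a fold moved. No direction could change, because the smallest parental-higher promoter fold was 1.63. The alternatives act on listed regions and bring in no others. No library could be left out with 1 a condition. No paired analysis was possible because each condition had 1 library. Depth limits the regions with few tags most, as the wide intervals of *DPF1*, *BCL7C* and *SMARCA4* intron 28 show.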
